A study of Mus musculus with 24 samples.

Results

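The 38 genes here encode proteins of the postsynaptic density and of inhibitory postsynapses, or, as with Nptx1, secreted proteins that cluster receptors at synapses. They were taken as a fixed list by gene symbol, and each of the 38 matched 1 gene among the 52636 in each count file. The list holds scaffolds (Dlg1, Dlg2, Dlg4, Dlgap1 to Dlgap4, Shank1 to Shank3, Homer1 to Homer3), the CaMKII genes with Nrgn, calcineurin subunits, proteins that accompany or cluster AMPA receptors, GTPase regulators, adaptors, and Gphn and Iqsec3 of inhibitory synapses.

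RNA was sequenced from the nucleus accumbens (NAc) of 24 C57BL/6 mice (C57BL/6J in the study's methods) killed at 50 days of age, with 1 library per animal. There were 4 groups, Con and MSUS animals of each sex, with 6 libraries in each. MSUS litters underwent early-life stress, in which pups were separated from the dam daily after birth and the dam was stressed unpredictably, and Con litters did not. The NAc of both sides was taken as a tissue punch, so the libraries hold every cell type in the punch and, at its edge, possibly neighbouring tissue. The labels do not give litters, so the n counts animals and littermates may be among them.

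At an excitatory synapse, MAGUK proteins such as PSD-95 hold glutamate receptors in place, GKAP proteins tie the MAGUKs to Shank, and Homer ties Shank to metabotropic glutamate receptors and to the spine's calcium stores. Calcium entering through NMDA receptors acts on CaMKII, which favours strengthening of the synapse, and on the phosphatase calcineurin, which favours weakening, and neurogranin sets how much calmodulin is free for either. In the NAc most neurons are GABAergic striatal projection neurons, whose spines receive glutamate input from cortex, hippocampus, amygdala and thalamus.

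Read pairs assigned to genes on the stranded column numbered 39923666 to 70575745 per library. Markers of striatal projection neurons (Drd1, Drd2, Penk, Ppp1r1b and 6 others) were above 0 in every library, with a summed level of 2914 to 7721 CPM (counts scaled to library size). Markers of cortical excitatory neurons (9 genes, among them Slc17a7 and Tbr1) were also above 0 in every library, and their sum ran from 129 to 1642 CPM. The cortical marker score used below is the mean log2 CPM of these 9 genes. It was 3.17 to 5.73 in Con females, 0.79 to 4.78 in MSUS females, 2.17 to 5.46 in Con males and 1.94 to 5.83 in MSUS males. Con female 3 and MSUS male 6 had the highest cortical sums, 1640 and 1642 CPM, and the lowest striatal sums, 2914 and 3482 CPM. The share of read pairs that fell in no annotated exon, called the unassigned share here, was 31.0% to 34.8% in Con females and 36.3% to 43.9% in MSUS females, with no overlap. It was 34.7% to 40.6% in Con males and 32.2% to 44.7% in MSUS males, with the highest value in MSUS male 1.

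Levels between genes are given as CPM per kb of merged exons. Over the 12 Con animals the median of the 38 members was 30.5 CPM per kb, against 2.84 for all genes tested in females. The highest medians were those of Agap2, a GTPase-activating protein for Arf proteins, at 224 CPM per kb, of Camk2a, the alpha subunit of CaMKII, at 217, and of Nrgn (neurogranin), at 207. The calcineurin genes Ppp3r1 and Ppp3ca followed at 120 and 118. Dlg4, which encodes PSD-95, stood at 58.0, Shank1 at 46.3, Shank3 at 44.2, Homer1 at 24.3 and Gphn (gephyrin) at 24.3. The lowest were Homer2 at 3.19, Homer3 at 1.84 and Ppp3r2, a second calcineurin regulatory subunit known mainly from testis, at 0.20. Of the 37 neighbouring pairs in this order, 36 had ranges over the 12 Con animals that overlapped. The exception was Homer3 over Ppp3r2, at the bottom of the order.

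**Figure D1:**
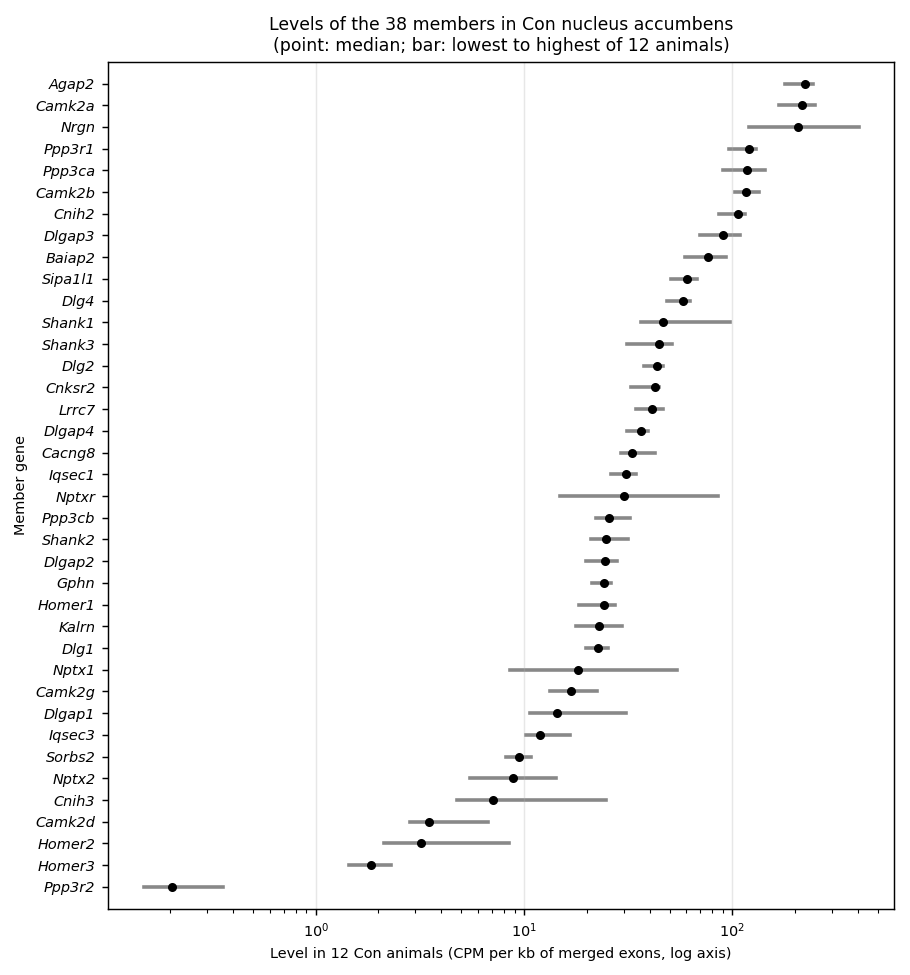
Levels of the 38 members in the 12 Con animals, in CPM per kb of merged exons on a log axis, with a point for the median and a bar from the lowest to the highest animal. Agap2, Camk2a and Nrgn stand highest, at 224, 217 and 207, and Ppp3r2 lowest, at 0.20, and the bars of Nptx1, Nptxr, Cnih3 and Homer2 are long.

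The members also differed in how far they spread between animals. The highest of the 24 libraries exceeded the lowest by 1.58 times for the median member, and by 1.67 times for the median gene tested in females. For 10 members the ratio was above 2. Nptx1 (neuronal pentraxin 1, a secreted protein that clusters AMPA receptors) ran from 1757 normalized counts in MSUS female 5 to 15079 in Con female 3. Nptxr, the membrane-bound neuronal pentraxin receptor, ran from 4043 in Con male 3 to 24169 in MSUS male 6. Gphn, the scaffold of inhibitory synapses, stayed between 4240 and 5147. Normalized counts here are counts divided by the library's size factor and are compared only within a gene.

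To ask whether MSUS altered these genes in females, MSUS females were compared with Con females over all 20571 genes that passed a filter on low counts, which all 38 members passed. In MSUS females 6 members were lower and 1 was higher at an adjusted p under 0.10 in edgeR's quasi-likelihood test. The 6 lower members were Nptx1, Nrgn, Camk2g, Iqsec1, Camk2a and Cnih2, and the higher was Ppp3r2. The 7 make up 18.4% of the members, while 25.1% of all genes tested passed. That number of genes, 5156, fell to 3102 without MSUS female 3 and 3358 without MSUS female 2, where 5 members passed in each case. By direction, 11.9% of all genes passed as lower and 13.1% as higher. Of the 38 log2 differences, 26 were negative and 12 positive, with a median of −0.09 against −0.0027 for all genes. The unassigned share did not overlap between these groups, and with the share as a covariate neither a member nor any other gene passed. In that fit the log2 differences of Nptx1 (−2.15), Camk2g (−0.29), Iqsec1 (−0.24), Camk2a (−0.22) and Nrgn (−0.58) were larger in size than, or near, those without it, while those of Cnih2 (−0.09) and Ppp3r2 (0.31) were smaller. In females the share and the group cannot be told apart.

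**Figure D2:**
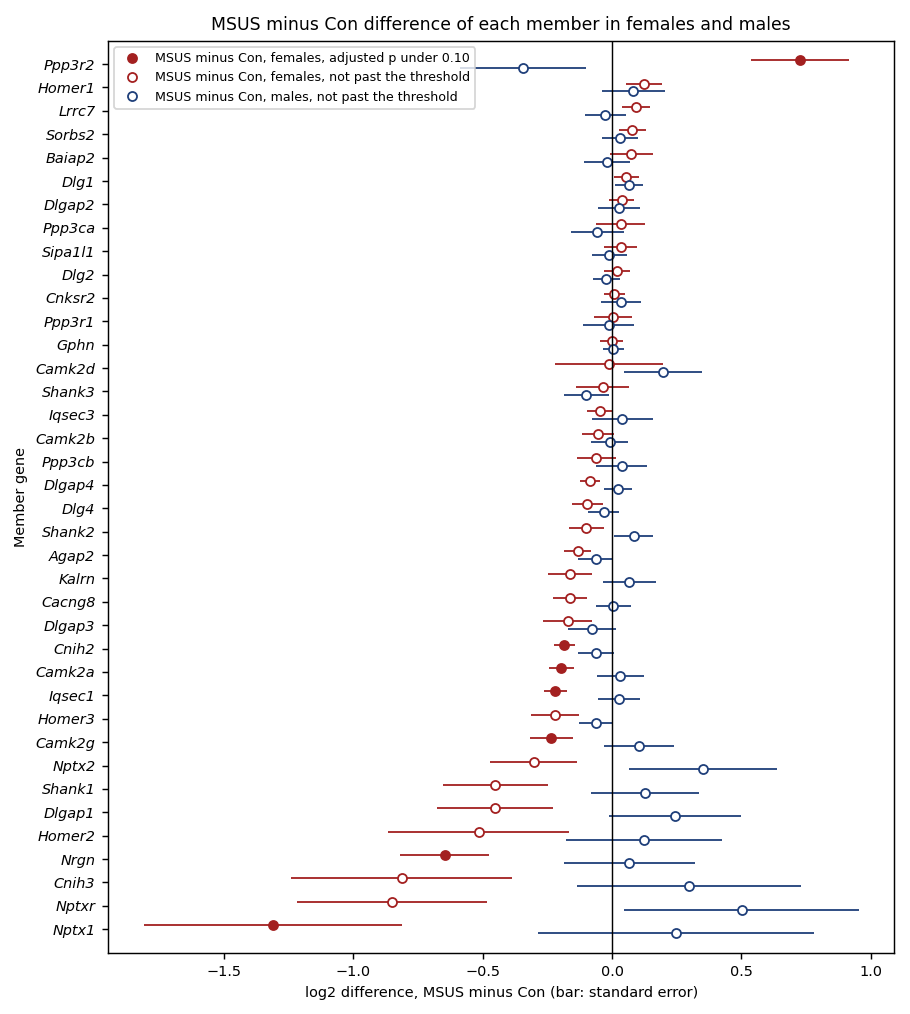
The log2 difference, MSUS minus Con, of each member in females and in males, with standard errors as bars and filled points where the adjusted p is under 0.10. The 7 filled points are all from females, 6 to the left of 0 and Ppp3r2 to the right at 0.73, and the widest bars belong to Nptx1, Nptxr, Cnih3 and Homer2.

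The 6 members that were lower came from CaMKII with neurogranin (3 of 5), the AMPA receptor partners (2 of 6) and the GTPase regulators (1 of 4), beside the 11.9% of all genes that were lower. These groups are small, and no group was tested. All 5 genes of the first group and all 6 of the second had negative differences. Neither the 3 MAGUK genes, the 4 GKAP genes, the 3 Shank genes, the 3 Homer genes, the 4 adaptors nor the 2 inhibitory-synapse genes held a member past the threshold in females.

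Nrgn (chromosome 9, 37544492 to 37552904, mm10) encodes neurogranin, which binds calmodulin when calcium is low. Con females had a lowest, median and highest of 15775, 15979 and 31066 normalized counts. MSUS females had 10196, 12691 and 13907. No MSUS female reached the lowest Con female, and Con female 2 stood far above the other Con females. The log2 difference was −0.65 (standard error 0.17, adjusted p = 0.0283 in edgeR's quasi-likelihood test). With the cortical marker score as a covariate it was −0.51, with an adjusted p of 0.234 in edgeR.

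Iqsec1 (chromosome 6, 90656088 to 90988685) encodes an exchange factor for Arf6 that is part of excitatory postsynapses. Con females ran from 18504 through a median of 19362 to 21121 normalized counts, and MSUS females from 16092 through 16604 to 17944. These groups did not overlap either. Its log2 difference was −0.22 (standard error 0.04, adjusted p = 0.0084 in edgeR), the smallest adjusted p among the members. Nrgn and Iqsec1 were the 2 of 38 members whose MSUS females all lay below the Con females. Over all genes, 3.41% were apart in that direction and 3.81% in the other, in which no member was apart.

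Camk2a and Camk2g encode the alpha and gamma subunits of CaMKII. Camk2a was lower by 0.20 on the log2 scale (standard error 0.05, adjusted p = 0.0195 in edgeR), from a Con female mean of 91288 ± 5197 normalized counts to an MSUS female mean of 79490 ± 4136 (SD, n = 6). Camk2g had 5206, 5756 and 7624 normalized counts as the lowest, median and highest of the Con females and 4918, 4977 and 5731 of the MSUS females. Its ranges overlapped, since MSUS female 1 stood at 5731 while the other MSUS females did not exceed 5070. The log2 difference was −0.24 (standard error 0.08, adjusted p = 0.0714 in edgeR). Without single libraries Camk2g stayed past the threshold in 5 of 12 fits and Camk2a in 12 of 12.

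Camk2b, the beta subunit, which binds actin, did not pass. Con females ran from 52206 through a median of 59548 to 65534 normalized counts and MSUS females from 52190 through 57439 to 60651, and the ranges overlapped almost wholly (log2 difference −0.06, standard error 0.06, adjusted p = 0.555 in edgeR). Camk2d, the delta subunit, had a log2 difference of −0.01. Its highest Con female was Con female 3 at 8075 normalized counts, while the other 5 did not exceed 4336.

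Of the proteins that accompany or cluster AMPA receptors, Nptx1 (chromosome 11, 119538719 to 119547753) had the lowest log2 difference of the members, −1.31 (standard error 0.50, adjusted p = 0.0959 in edgeR). Con females had 3287, 7009 and 15079 normalized counts as lowest, median and highest, and MSUS females 1757, 2520 and 7633. The ranges overlapped widely, with MSUS female 1 highest in its group. Without single libraries it passed in 4 of 12 fits, with log2 differences from −1.71 to −1.07. Nptxr and Cnih3, an auxiliary subunit of AMPA receptors, had log2 differences of −0.85 and −0.81 and did not pass, with adjusted p of 0.134 and 0.208 in edgeR. Nptx2, a pentraxin induced by activity, stood at −0.30.

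Cnih2, also an AMPA receptor auxiliary subunit, was lower by 0.19 on the log2 scale with little spread (standard error 0.04, adjusted p = 0.0113 in edgeR). The Con female mean was 7954 ± 289 normalized counts and the MSUS female mean 6977 ± 395 (SD, n = 6). Cacng8 encodes a transmembrane AMPA receptor regulatory protein. Its lowest, median and highest normalized counts were 3960, 4128 and 5310 for Con females and 3523, 3858 and 4152 for MSUS females. Con female 3 was the highest by far, the ranges overlapped, and the difference of −0.16 (standard error 0.07) had an adjusted p of 0.110 in edgeR.

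Ppp3r2 was the member that was higher. It lies on chromosome 4 from 49678747 to 49682024, inside Grin3a on the same strand with no exon in common. Con females had 23.98, 28.7 and 41.4 normalized counts as lowest, median and highest, and MSUS females 37.1, 45.6 and 72.2. All 6 MSUS females exceeded the Con median, but the ranges overlapped through Con female 3 at 41.4. The log2 difference was 0.73 (standard error 0.19, adjusted p = 0.0235 in edgeR). Its counts are the lowest of the members, and reads from the part of Grin3a that holds it would be counted to it. Grin3a, an NMDA receptor subunit gene, had a log2 difference of 0.23 in the same comparison, with an adjusted p of 0.110 in edgeR.

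The main regulatory subunit of calcineurin, Ppp3r1, ran from 17147 through a median of 20453 to 22201 normalized counts among Con females, and from 18012 through 20127 to 23381 among MSUS females. Its log2 difference was 0.0047 (standard error 0.07, adjusted p = 0.971 in edgeR), and the groups covered nearly the same range. The catalytic subunits Ppp3ca and Ppp3cb had log2 differences of 0.03 and −0.06.

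Of the scaffolds, Dlg4 ran from 34155 through a median of 41916 to 43564 normalized counts among Con females, and from 34889 through 38452 to 41444 among MSUS females. All 6 MSUS females were under the Con median, and Con female 3, the lowest Con female, was under all of them (log2 difference −0.10, standard error 0.06, adjusted p = 0.291 in edgeR). Without Con female 3 Dlg4 passed the threshold, as did Dlgap3 and Homer3, and 10 members passed in all, beside 4765 of the 20742 genes tested. Shank3 had 15354, 22484 and 25072 in Con females and 18241, 21674 and 23422 in MSUS females, again with Con female 3 lowest (log2 difference −0.04, standard error 0.10, adjusted p = 0.833 in edgeR).

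Homer1 ran from 14512 through a median of 15507 to 17329 normalized counts among Con females, and from 14384 through 17123 to 18990 among MSUS females. The MSUS females spread over the whole Con range and beyond it (log2 difference 0.12, standard error 0.07, adjusted p = 0.243 in edgeR). The short Homer1a and long Homer1 forms are not told apart by these gene counts. Gphn had 4240, 4836 and 5147 in Con females and 4596, 4751 and 4844 in MSUS females, whose range lay inside that of the Con females (log2 difference −0.0023, standard error 0.04, adjusted p = 0.977 in edgeR).

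**Figure D3:**
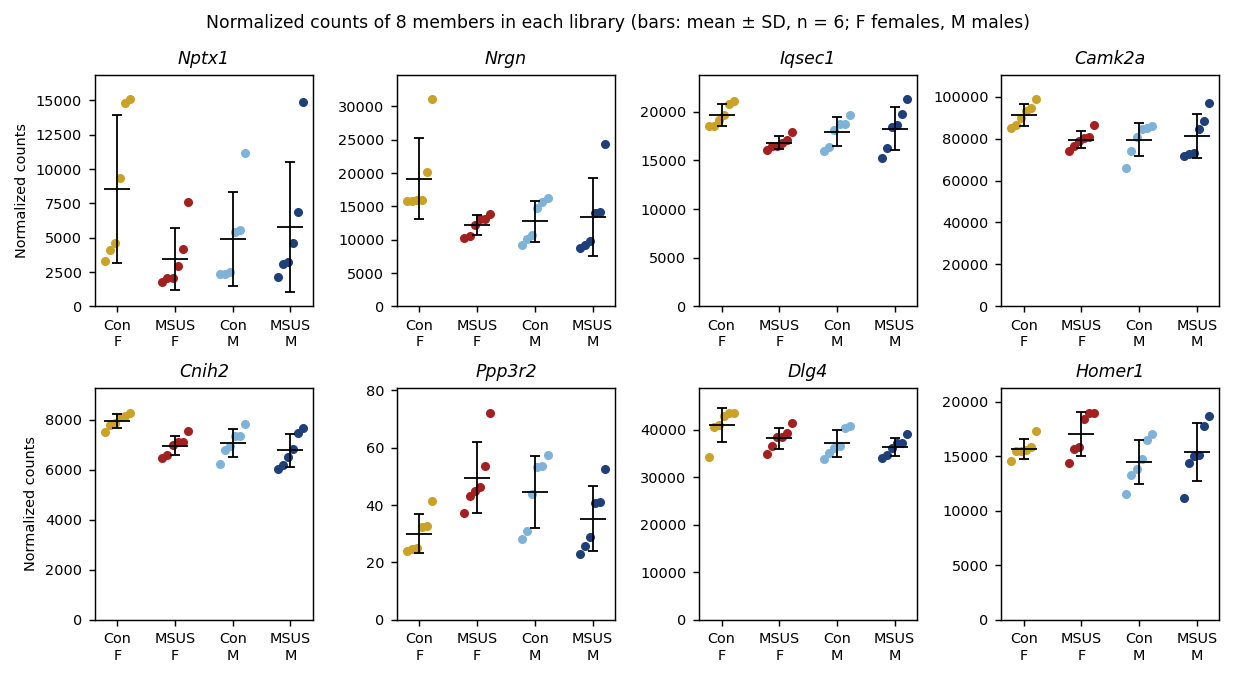
Normalized counts of 8 members in each of the 24 libraries by group, with mean and SD (n = 6) as bars and each y axis starting at 0. In females the groups are apart for Nrgn and Iqsec1 and overlap for the other 6, and in males they overlap for all 8.

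The remaining members that did not pass in females ranged in log2 difference from −0.52 for Homer2 to 0.09 for Lrrc7 (densin-180, an adaptor that binds CaMKII). Homer2, Dlgap1 and Shank1 stood at −0.52, −0.45 and −0.45 with standard errors of 0.35, 0.23 and 0.20. In all 3, Con female 3 was the highest Con female and MSUS female 1 the highest MSUS female. Without MSUS female 1, 12 members passed in place of 7, Dlgap1 and Shank1 among them. Of all genes, 5737 of 20707 passed in that fit, against 5156 of 20571 with every library. Homer3, Dlgap3, Dlgap4, Shank2, Kalrn and Agap2 lay between −0.22 and −0.09. Iqsec3, Dlg1, Dlg2, Dlgap2, Baiap2, Cnksr2, Sorbs2 and Sipa1l1 lay between −0.05 and 0.08.

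Several of the large negative differences moved with the cortical markers. In MSUS females 8 of the 9 cortical markers had negative differences and 2 passed as lower. Their summed level was 263 to 1640 CPM in Con females (median 612) and 129 to 749 CPM in MSUS females (median 215), with no marker at 0 in any library. The same sum was 164 to 1153 CPM in Con males and 176 to 1642 CPM in MSUS males. With the cortical marker score as a covariate, Nptx1, Nptxr, Dlgap1 and Shank1 had log2 differences of −0.08, −0.08, 0.02 and −0.0077 in females, and Cnih3 and Homer2 had 0.18 and 0.20, while Nrgn stayed at −0.51. In that fit 3 members passed as lower, Iqsec1 (−0.14, adjusted p = 0.0867), Cnih2 (−0.15, adjusted p = 0.0954) and Agap2 (−0.20, adjusted p = 0.0731), all from edgeR. Of the 20571 genes tested, 1766 passed in the same fit, in either direction. In a bulk punch, fewer cells of a type and less RNA per cell cannot be told apart.

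Males gave the relation apart from the female comparison, and the score overlapped between the groups in both sexes. Across the 12 males, with group in the model, 16 members rose and 1 fell with the cortical marker score at an adjusted p under 0.10 in edgeR. This is 44.7% of the members, against 21.2% of all genes, of which 12.7% rose and 8.52% fell with the score. Nptx1 rose by 0.72 on the log2 scale per unit of score (standard error 0.05, adjusted p = 4.18e-06 in edgeR), Nptxr by 0.55, Cnih3 by 0.52, Homer2 by 0.33 and Dlgap1 by 0.32. Kalrn, an exchange factor for small GTPases in spines, rose by 0.14 and Camk2a by 0.11. Ppp3r2 was the one that fell, by 0.26 per unit of score (adjusted p = 0.0353 in edgeR). The MAGUK and inhibitory-synapse genes held no member past the threshold. This comparison was chosen after the data were seen.

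**Figure D4:**
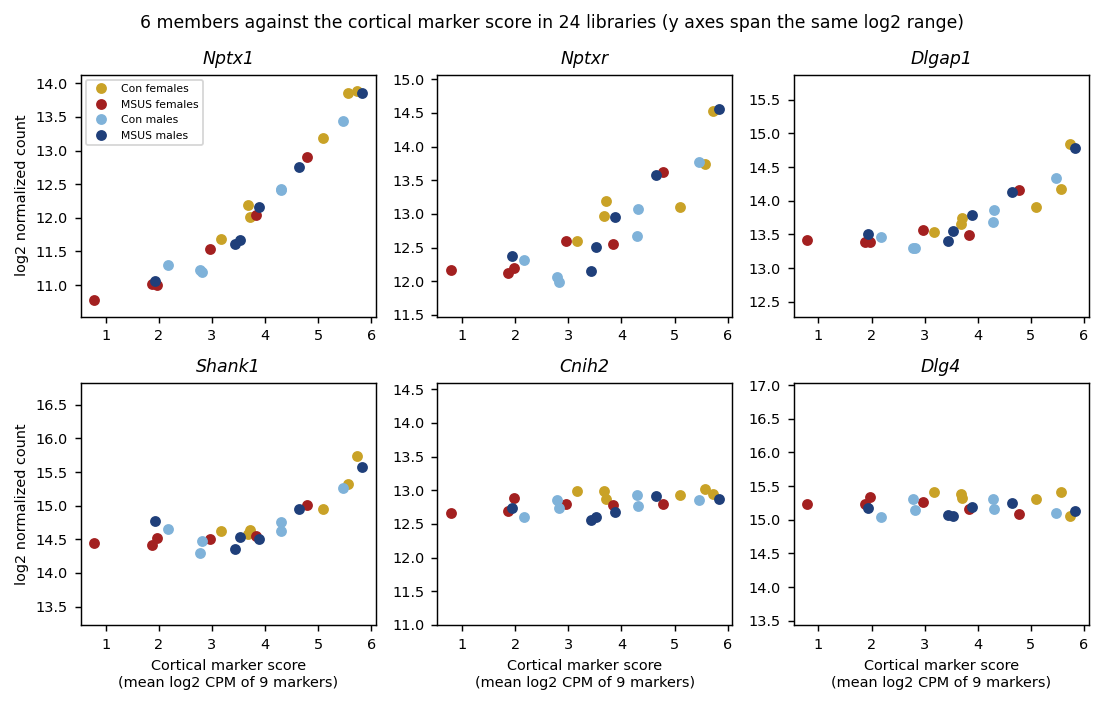
The log2 normalized count of 6 members against the cortical marker score, the mean log2 CPM of 9 markers, in the 24 libraries, with y axes that span the same log2 range. Nptx1, Nptxr, Dlgap1 and Shank1 are high in the libraries with high scores, in both sexes and both groups. Cnih2 and Dlg4 vary less across scores from 0.79 to 5.83, the highest library being 1.37 and 1.29 times the lowest.

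The other measure that differed between the female groups, the unassigned share, was also set against the members in males. Over the 12 males, with group in the model, 14 members fell with the share and none rose, 36.8% of the members against 31.5% of all genes. Of all genes 16.9% fell and 14.7% rose. All 6 of the AMPA receptor partners were among the 14, and 5 of these 6 also rose with the cortical marker score. In the same males 9 of 9 cortical markers had negative slopes on the share (median −0.22 per percentage point), and 2 passed. Camk2g fell by 0.06 on the log2 scale per percentage point of the share (standard error 0.01, adjusted p = 0.0036 in edgeR) and Iqsec1 by 0.04 (standard error 0.0075, adjusted p = 0.0068 in edgeR). Nrgn fell by 0.08 and Cnih2 by 0.03, both past the threshold, while Camk2a at −0.03 and Ppp3r2 at 0.07 did not pass. Of the 6 members that were lower in MSUS females, 5 fell with the share in males, and the matching count over all genes was not taken. This comparison, too, was chosen after the data were seen, and the part of the share in the female differences was not tested.

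Within several members, their own exons and gene models in their introns differed. Many members are long genes, and 44 annotated gene models lie inside them on the same strand without sharing an exon base with the member. Of these, 41, inside 11 members, could be tested in females. In MSUS females 39 of the 41 had positive differences, 30 passed the threshold and none passed as lower, where 13.1% of all genes passed as higher. Their median log2 difference was 0.67. Models inside the same member are not independent of each other. Since the libraries were made by removing ribosomal RNA and not by selecting poly(A) tails, introns of unspliced RNA are among the reads. Reads from the stretch of intron that such a model covers are counted to the model.

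Dlg2, which encodes PSD-93 and spans 1972576 bases of chromosome 7 (90476672 to 92449247), holds 19 of the tested models. All 19 passed as higher in MSUS females, with log2 differences from 0.47 to 1.11, and for 16 of the 19 the groups did not overlap, as against 3.81% of all genes in that direction. Dlg2 itself had a log2 difference of 0.02 (standard error 0.05). The model with the highest difference, Gm44680 (chromosome 7, 91635239 to 91638148), ran from 82.8 through a median of 102 to 118 normalized counts among Con females, and from 158 through 207 to 295 among MSUS females. It was named after its values were seen. In males the 19 differences ran from −0.15 to 0.06, and over the 12 males all 19 rose with the unassigned share and passed. The share counts pairs in no annotated exon, reads from introns among them. The share and the models thus both draw on intron reads, so this rise is no separate result.

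Gphn, Camk2d, Homer1, Ppp3ca and Sorbs2 showed the same contrast with fewer models. The 3 models in Gphn had differences from 0.49 to 0.74, and 2 passed, while Gphn stood at −0.0023. The 6 models in Camk2d had 0.43 to 0.81, and 4 passed, while Camk2d stood at −0.01. In Homer1 the models stood at 0.46 and 0.51 and the second passed, in Ppp3ca the model stood at 0.59, and in Sorbs2 at 0.41, the last 2 past the threshold. Iqsec1 was lower in MSUS females by 0.22 on the log2 scale, while its 3 models stood at 0.23 to 0.33, and 1 of them, Gm44105, passed. The models in Shank1 and Cnih3 had differences of −0.09 and −0.25, and those members stood at −0.45 and −0.81. With the unassigned share as a covariate none of the 41 models passed, and their median was 0.13.

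**Figure D5:**
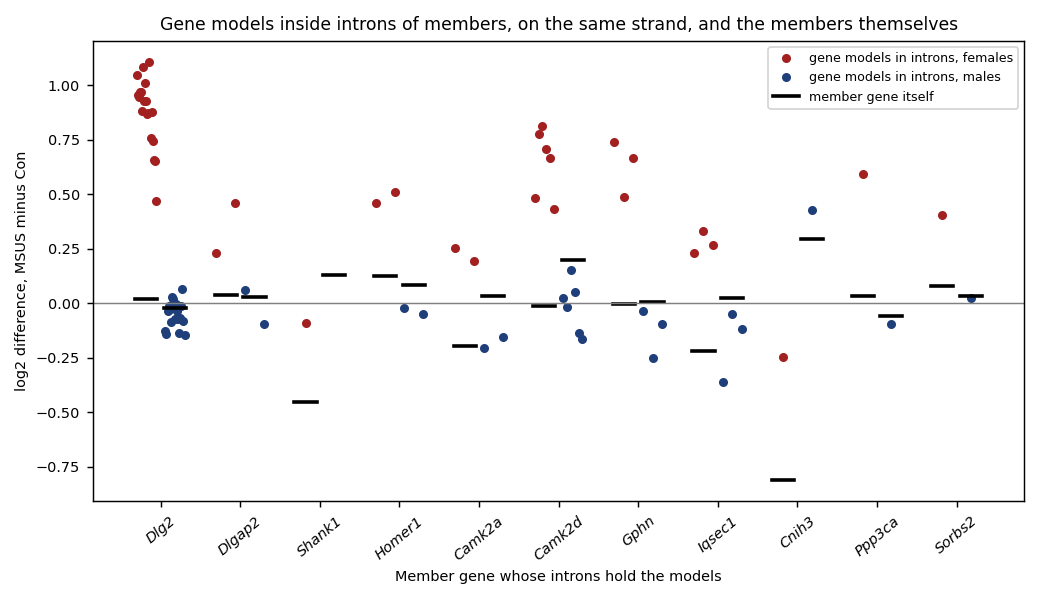
The log2 difference, MSUS minus Con, of gene models inside introns of 11 members (points, females and males) and of the members themselves (black bars). The 19 models in Dlg2 stand at 0.47 to 1.11 in females and between −0.15 and 0.06 in males, while the bars of Dlg2 are near 0.

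In males the same question gave no member past the threshold in edgeR or DESeq2, and 0.0% of the 20691 genes tested passed. No member had an unadjusted p under 0.05 in edgeR, beside 191 of the 20691 genes. The log2 differences ran from −0.34 for Ppp3r2 to 0.50 for Nptxr, with a median of 0.03. Of the 38, 24 were positive and 14 negative. The standard errors of Nptx1, Nptxr and Cnih3 were 0.53, 0.45 and 0.43, close to those in females.

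Nrgn had 9184, 12738 and 16198 normalized counts as lowest, median and highest of the Con males and 8769, 11927 and 24328 of the MSUS males, whose range enclosed that of the Con males (log2 difference 0.07, standard error 0.25). Ppp3r2 had 28.1, 48.7 and 57.5 in Con males and 22.8, 34.8 and 52.5 in MSUS males, a log2 difference of −0.34 (standard error 0.24), with ranges that overlapped widely. Iqsec1 had 15942, 18400 and 19711 in Con males and 15250, 18524 and 21265 in MSUS males, a log2 difference of 0.03. Dlg4, Shank3, Homer1, Camk2b, Ppp3r1, Gphn and Cacng8 had log2 differences between −0.10 and 0.08.

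Whether the MSUS difference itself differed between the sexes was tested over all 24 libraries. No member passed in edgeR's quasi-likelihood test, and 0.0% of the 21500 genes tested passed. At an unadjusted p under 0.05 there were 5 of 38 members, Ppp3r2, Iqsec1, Nrgn, Camk2a and Nptxr, beside 4031 of the 21500 genes. The smallest adjusted p was that of Ppp3r2, 0.1998, for a difference of 1.06 on the log2 scale between the sexes (standard error 0.31). DESeq2 called 1 member, Ppp3r2, and the share of all genes that it called is not given here. Without MSUS male 1, the library with the highest unassigned share, 2 members passed in edgeR, Iqsec1 and Ppp3r2, as did 3031 of all genes. Members that passed in females and not in males are therefore not shown to differ between the sexes in the fit of all libraries.

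Con females and Con males were compared to see whether the members differed by sex without stress. At an unadjusted p under 0.05 in edgeR there were 8 of the 38 members, beside 3670 of the 20641 genes tested. No member passed the adjusted threshold in edgeR, where 2.64% of genes did. The 544 genes behind that share depended on single libraries, with 20 left without Con female 4, 21 without Con male 3 and 1395 without Con male 5. DESeq2 called 5, Dlgap4, Camk2a, Nrgn, Nptx2 and Cnih2, all higher in females. The 2.64% is edgeR's, and the share of all genes that DESeq2 called is not given here. In edgeR 35 of the 38 differences were positive, with a median of 0.12 against 0.01 for all genes. Nptx2 was nearest to the threshold, at 0.57 (standard error 0.17, adjusted p = 0.119 in edgeR), with a Con female mean of 1487 ± 329 and a Con male mean of 1005 ± 224 normalized counts (SD, n = 6). The unassigned share overlapped little between these groups (31.0% to 34.8% in females and 34.7% to 40.6% in males), and its part in these differences was not tested. This comparison shares its Con females with the comparison of MSUS and Con females.

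MSUS females and MSUS males did not differ in any member in edgeR or DESeq2, and 0.135% of genes passed in edgeR. At an unadjusted p under 0.05 there were 3 of 38 members, beside 1511 of the 20714 genes tested. The median difference, females minus males, was −0.0075, with 19 positive and 19 negative.

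Beyond the members, 64 other postsynaptic genes (receptor partners, calmodulin, spine actin regulators and regulators of small GTPases) were counted in the same fits. In MSUS females 24 of the 64, or 37.5%, passed as lower and none as higher, beside 11.9% and 13.1% of all genes, and their median was −0.09. The list was chosen with earlier results of these data known, so its share is not an independent test. The largest falls were those of Shisa6, an AMPA receptor auxiliary protein (−0.69, standard error 0.22, adjusted p = 0.0543), Baiap2l2 (−0.62, standard error 0.15, adjusted p = 0.0185) and Cacng7, a relative of Cacng8 (−0.40, standard error 0.12, adjusted p = 0.0436), all from edgeR. The mean of Shisa6 was 1122 ± 342 normalized counts for Con females against 693 ± 179 for MSUS females (SD, n = 6). In males none of the 64 passed, and none had an unadjusted p under 0.05 in edgeR. The oligodendrocyte markers Mbp, Mog, Mag and Mobp had a summed level of 2430 to 3628 CPM for Con females and 2135 to 2668 CPM for MSUS females. These 4 genes all passed as lower in MSUS females in edgeR, with a median log2 difference of −0.29. None of the 10 striatal markers passed, and their median difference was 0.05. The part of these cell types in the member differences was not tested.

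The promoters are shown for 3 of the members that passed in females. The printed bases hold no annotated exon, though the Iqsec1 window lies inside the gene as annotated. Nrgn also passed, but its window runs into an exon after 91 bases and is not shown. RefSeq (GRCm38.p6) gave a promoter for 29 of the 38 members, read here as the 250 bases before the start. Capitals mark the GC box, GGGCGG on either strand, which Sp and Klf factors are known to bind. Ppp3r2, which was higher in MSUS females, is printed up to the first base of an exon, and Iqsec1 has a second start that is not shown.
Cnih2, minus strand, chr19:5098522-5098771: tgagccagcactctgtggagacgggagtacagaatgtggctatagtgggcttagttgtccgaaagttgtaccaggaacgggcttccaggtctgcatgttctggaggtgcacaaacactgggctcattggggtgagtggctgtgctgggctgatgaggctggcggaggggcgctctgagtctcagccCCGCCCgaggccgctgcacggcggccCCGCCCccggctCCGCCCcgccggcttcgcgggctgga
Iqsec1, minus strand, chr6:90810124-90810373: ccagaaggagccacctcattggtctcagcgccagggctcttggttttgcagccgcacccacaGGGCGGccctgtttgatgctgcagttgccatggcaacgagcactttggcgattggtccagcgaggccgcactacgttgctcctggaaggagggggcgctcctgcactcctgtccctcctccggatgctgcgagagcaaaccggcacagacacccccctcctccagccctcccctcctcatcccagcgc
Ppp3r2, minus strand, chr4:49682025-49682233: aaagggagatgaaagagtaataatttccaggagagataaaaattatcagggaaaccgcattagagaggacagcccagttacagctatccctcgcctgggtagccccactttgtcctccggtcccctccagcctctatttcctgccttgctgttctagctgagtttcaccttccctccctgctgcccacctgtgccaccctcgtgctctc
The Cnih2 window holds 3 GC boxes, the Iqsec1 window 1 and the Ppp3r2 window none. At least 1 GC box was found in 20 of the 29 member promoters (69.0%) and in 32.9% of all 27025 promoters. The TATA box, TATAAA, was in 1 member promoter (Baiap2) and in 12.97% of all. The cAMP response element, TGACGTCA, was in no member promoter and in 1.62% of all, and the Klf-type box CCACACCC in none and in 3.19%. These matches describe the letters in the windows.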

How the data were processed

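Total RNA of NAc punches was depleted of ribosomal RNA and sequenced as stranded read pairs. Per the labels and the study's methods, the authors aligned to mm10 with STAR 2.6.1b and GENCODE, and the deposited files hold raw counts of read pairs per gene for each library. The labels also name CASAVA 1.8, HTSeq and DESeq2. The reverse-strand count was used, with rows that name no gene left out of library sizes: pairs in no exon made up 31.0% to 44.7% and ambiguous pairs 0.75% to 0.94%.

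The members and all lists were chosen with earlier results of these data known. Positions come from GENCODE M21 (GRCm38, the same coordinates as mm10). Counts were tested with edgeR 4.0.16 (glmQLFit and glmQLFTest, robust, TMM, filterByExpr with a minimum count of 10) under R 4.3.3, in each sex, for the interaction over all 24 libraries and between sexes. Benjamini-Hochberg adjustment ran over all genes, with a threshold of 0.10, and n is animals. Normalized counts were divided by DESeq2 1.42.0 size factors over the 24 libraries. The estrous cycle was not modelled, because the labels give no stage for 6 of the 12 females and give one to 6 males. Xist and Ddx3y matched the labelled sex in 24 of 24 libraries. Scripts were tested on simulated data. Intervals are standard errors of the log2 difference or slope in the fit, while SDs and ranges give the spread between these animals. Named in full were the members past the threshold in females, up to 4 falls and 4 rises, and 1 member per role. Alternatives were DESeq2, its size factors, other filters, counts without strand, a replicate block, library set, unassigned share, cortical marker score, a threshold of 0.05, a fit of all 24 libraries and leaving out each library. The 60 library pairs within groups were compared by a chi-square per gene, with a lowest value of 6.36, so no library was a copy of another. The labels and the study's methods differ in the daily hours of separation. Of the oligodendrocyte marker list, 1 gene is not reported here, and no count over that list is given.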

Additional observations from a re-analysis of the deposited data

Results flagged for a closer look

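Of 152 member-by-group sets of 6 libraries, 19 held a library that lay far from the others of its group, with a gap above the critical ratio of Dixon's test, where chance flags about 1 in 20. The sets share libraries and are not independent. Con female 3 stood apart for 7 members. It was lowest for Dlg4, at 34155 normalized counts against 40459 for the next, and highest for Dlgap1 (29535), Shank2 (18197), Homer2 (5704), Camk2d (8075), Iqsec3 (10164) and Cacng8 (5310). This library had the highest cortical marker sum of the Con females, 1640 CPM, and the lowest striatal sum of all libraries, 2914 CPM. MSUS female 1 was highest for 6 members: Dlgap1 at 18211 normalized counts, Shank1 at 33110, Homer2 at 3590, Camk2g at 5731, Nptxr at 12655 and Cnih3 at 1683. Its cortical sum, 749 CPM, was the highest of the MSUS females and its striatal sum, 5174 CPM, the lowest. MSUS male 6, the highest of the MSUS males in cortical sum, stood apart for Nrgn at 24328 and Nptx1 at 14871. Con male 5, the highest of the Con males in that sum, stood apart for Nptx1 at 11159 and Cnih3 at 2508. Nrgn in Con female 2 was 31066 against 20235 for the next Con female, and Dlgap4 in Con male 6 was the lowest of its group at 13904. The part of the cortical markers in these values was not tested.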

How the results depend on the processing

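For members lower or higher in MSUS females, 7 in the fit as reported, DESeq2 called 12, the cortical marker score as a covariate left 3, and the unassigned share, alone or with the score, left 0. Of all genes, 5156 passed as reported, 5746 in DESeq2, 1766 with the score and 0 with the share, alone or with the score. With the share alone 5 of the 7 log2 differences were near or beyond the reported ones, from −2.15 for Nptx1 to −0.22 for Camk2a, and those of Cnih2 and Ppp3r2 were −0.09 and 0.31. The fit with both covariates was added after the data were seen, and in it Nptx1 turned to 0.018. In females the sign of 16 of the 38 differences changed with the score and of 6 with the share. Leaving out single libraries gave 5 to 12 members, 12 without MSUS female 1, where 5737 of all genes passed. Camk2a, Nrgn, Iqsec1, Cnih2 and Ppp3r2 passed in all 12 such fits and at a threshold of 0.05, Camk2g in 5 and Nptx1 in 4. For the interaction DESeq2 called 1 member, and leaving out single libraries gave 0 to 2. For Con females against Con males DESeq2 called 5 and counts without regard to strand 2, and leaving out single libraries gave 0 to 1 (Cnih2 without Con male 2, Nptx2 without Con male 5). For the interaction and this comparison, all-gene counts of DESeq2 and of counts without strand are not given. The member counts from those fits cannot be set against them. In males and between MSUS females and MSUS males 0 members passed under every alternative run. The causes were not tested. Same-numbered animals of the groups were not paired by the labels, and their deviations correlated from −0.24 to 0.25 in females. The numbers were not used as pairs in the main fits, though such correlations cannot exclude shared litters. With the replicate block 5 members passed in females (Camk2a, Iqsec1, Nptx1, Cnih2 and Ppp3r2, with Nrgn at −0.60 and Camk2g at −0.22, each with an adjusted p of 0.102 in edgeR), and 0 in males, for the interaction, in Con females against Con males and in MSUS females against MSUS males. In females 3800 of the 20571 genes tested passed with the block. Ppp3r2, with under 100 normalized counts in every library, is the member that depth limits most.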
